A study of Homo sapiens with 6 samples.

Results

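The 8 genes described here encode the enzymes that make cysteine, turn it into taurine or build it into glutathione: CDO1, ADO, CSAD, CTH, CBS, GCLC, GCLM and GSS. They were found by their NCBI gene identifiers among the 28395 genes of a raw count table. The group was picked from the difference between WT and NUAK2-CR cells, in which CDO1 was among the largest decreases, so values of the 8 genes in this comparison are given as a description, with no p-value. Where a member is said to pass or miss the threshold of the fit over all genes, that too describes the member and supports nothing further. Libraries came from U251MG (U251), an established human glioblastoma cell line. WT cells gave 3 libraries, and cells of genotype NUAK2-CR, in which CRISPR-Cas9 was directed at NUAK2, gave the other 3. NUAK2-CR cells had received Cas9 and a guide RNA from GFP and mCherry lentiviral vectors and were grown out from sorted single cells. The labels name no clone, and the study names a single clone for this comparison in its enrichment results, so editing and clonal origin cannot be told apart. Whether WT cells had carried a vector is not given in the sources used here. Nothing says that libraries of a group came from separate cultures, so the spread between them may be technical.

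Cells take up cystine or make cysteine from homocysteine through cystathionine, in steps catalyzed by CBS and CTH (the transsulfuration route). Cysteine then has competing fates. CDO1 oxidizes it to cysteine sulfinate, CSAD removes the carboxyl group to give hypotaurine, and hypotaurine is oxidized to taurine; ADO reaches hypotaurine from cysteamine. Alternatively, glutamate-cysteine ligase, made of the catalytic subunit GCLC and the modifier subunit GCLM, joins cysteine to glutamate, and GSS adds glycine to complete glutathione, the main soluble thiol of cells. In brain, astroglia are known as a major site of glutathione synthesis.

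Summed counts ranged from 29648445 to 55574081 per library, with WT replicate 1 the deepest. NUAK2, the targeted gene, was at 52.6% of WT in NUAK2-CR (log2 fold change -0.93, adjusted p = 1.8e-05). Of 9 glioma and astroglial markers, OLIG2 was at 0 in every library and AQP4 did not exceed 2.15 normalized counts. The summed level of the 9 ran from 331746 to 367067 normalized counts in WT and from 144893 to 151667 in NUAK2-CR. Of the 7 that were tested, 6 were lower at an adjusted p-value under 0.05, as were 28.2% of all genes tested. Their log2 fold changes ran from -2.60 for S100B and -2.56 for GFAP to -0.49 for VIM. SOX9 did not pass this threshold (log2 fold change -0.14). Of 7 markers of other cell types, AIF1 and MOG were at 0. The sum of the 7 ran from 12.9 to 33.8 in WT and from 33.8 to 45.0 in NUAK2-CR. Among the 3 that were tested, PECAM1, an endothelial marker, was higher (log2 fold change 4.53). It was scarce, with means of 0.44 normalized counts in WT and 15.8 in NUAK2-CR, and passed the filter on low counts through NUAK2-CR alone. CDH5, also endothelial (log2 fold change 0.85), and RBFOX3, a neuronal marker (log2 fold change -0.68), did not pass an adjusted p-value of 0.05. The part of these marker shifts in the results that follow was not tested.

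The promoters of 2 members are shown, CDO1 because its transcript was not counted in NUAK2-CR and GCLM because it held a match to a searched motif. Both are RefSeq sequences of GRCh38.p14 on the gene's strand, from 250 bases before to 50 bases after the annotated start, and capitals mark the match. CDO1 lies at chr5:115816610-115816909, minus strand, and GCLM at chr1:93909381-93909680, minus strand.
CDO1: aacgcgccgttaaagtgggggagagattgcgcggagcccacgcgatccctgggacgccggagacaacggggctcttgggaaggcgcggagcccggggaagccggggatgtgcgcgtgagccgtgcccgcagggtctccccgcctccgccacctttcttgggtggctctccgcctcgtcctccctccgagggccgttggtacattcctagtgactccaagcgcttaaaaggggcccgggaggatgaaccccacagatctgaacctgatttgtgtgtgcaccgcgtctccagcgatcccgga
GCLM: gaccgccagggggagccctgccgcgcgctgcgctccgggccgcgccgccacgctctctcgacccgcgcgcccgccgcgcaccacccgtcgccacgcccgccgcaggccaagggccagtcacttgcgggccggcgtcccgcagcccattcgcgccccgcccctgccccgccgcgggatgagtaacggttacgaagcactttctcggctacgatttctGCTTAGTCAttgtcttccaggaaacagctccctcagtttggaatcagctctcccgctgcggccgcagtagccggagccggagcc
Each window was searched on both strands for TGACNNNGC, the core of the antioxidant response element, and TGATGNAA, the core of the C/EBP-ATF element; the motifs did not overlap in these windows. Of 35116 promoters of this length, 13.3% held the first and 3.62% the second. The GCLM match began 34 bases before the start, and 1 of the 3 CBS windows also held the first motif. Neither motif was found in the windows of CDO1, ADO, CSAD, CTH or GCLC. The CDO1 window had 30 CpG dinucleotides, a ratio of observed to expected CpG of 0.92 and 66.0% G and C. A ratio above 0.6 together with over 50% G and C was met by 46.8% of the promoters.

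In the comparison of NUAK2-CR with WT, 6 of the 8 members had an adjusted p-value under 0.05, 3 higher and 3 lower. Over all 14873 genes tested this held for 54.5%, with 26.3% higher and 28.2% lower. The WT and NUAK2-CR libraries did not overlap for 6 of the 8 members, against 61.4% of the genes tested. CDO1 was the only member that also had an absolute log2 fold change over 2, which 4.72% of the genes tested reached. These shares are printed as background, and nothing is read from the members' counts. The median log2 fold change of the members was -0.05, and that of all genes tested was -0.01.

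**Figure D1:**
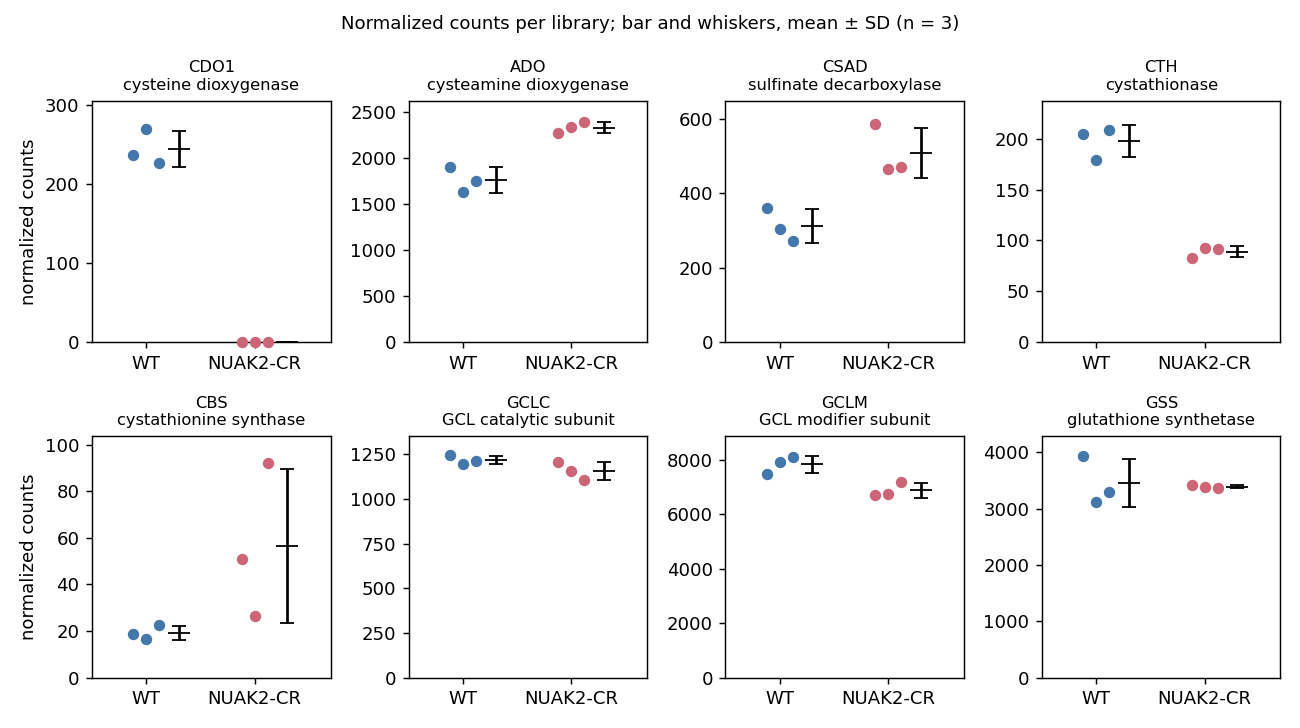
Normalized counts of each of the 8 members (vertical axes, each from 0) in the 3 WT and 3 NUAK2-CR libraries; points are libraries, and the bar with whiskers is the mean ± SD. CDO1 lies between 227 and 269 in WT and at 0 in every NUAK2-CR library, CTH is lower, ADO and CSAD are higher, and GCLC and GSS overlap between the groups.

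CDO1 (gene 1036, chromosome 5, 115804733 to 115816659), the dioxygenase that commits cysteine to sulfinate and taurine, had 355, 279 and 211 reads in WT replicates 1, 2 and 3. Normalized counts, obtained by bringing every library to a common effective size, were 236, 269 and 227 in these libraries. No NUAK2-CR library had a read. The WT mean was 244 ± 22.3 (SD, n = 3). A count of 0 was taken to allow up to 3 counts per library, or 3.57 normalized counts on average in NUAK2-CR. At this floor CDO1 was at least 68.3-fold lower, with the WT mean taken as exact. Both mates of a read pair appear to be counted, and with 6 counts per library in place of 3 the bound was 34.1-fold. CDO1 passed the filter on low counts through its WT libraries alone. Of the genes tested, 7 had no count in NUAK2-CR and at least 100 normalized counts in WT, and CDO1 had the second highest WT mean among them.

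The genes beside CDO1 on chromosome 5 moved far less. Over the 10 tested genes on each side, the median log2 fold change was -0.34, with values from -1.42 for ARL14EPL to 0.71 for TRIM36. Of these 20 genes, 10 had an adjusted p-value under 0.05 and were lower, 1 was higher, and none had a log2 fold change under -2. At an adjusted p-value under 0.05, 28.2% of all genes tested were lower and 26.3% higher. These shares are also the background for the neighbours of the other members. The nearest tested gene on one side, ATG12, went from 2184 to 1769.9 normalized counts (log2 fold change -0.30, SE 0.08, adjusted p = 0.0078). On the other side TMED7 was at 3235 and 3254 normalized counts (log2 fold change 0.01, SE 0.12, adjusted p = 0.947).

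**Figure D2:**
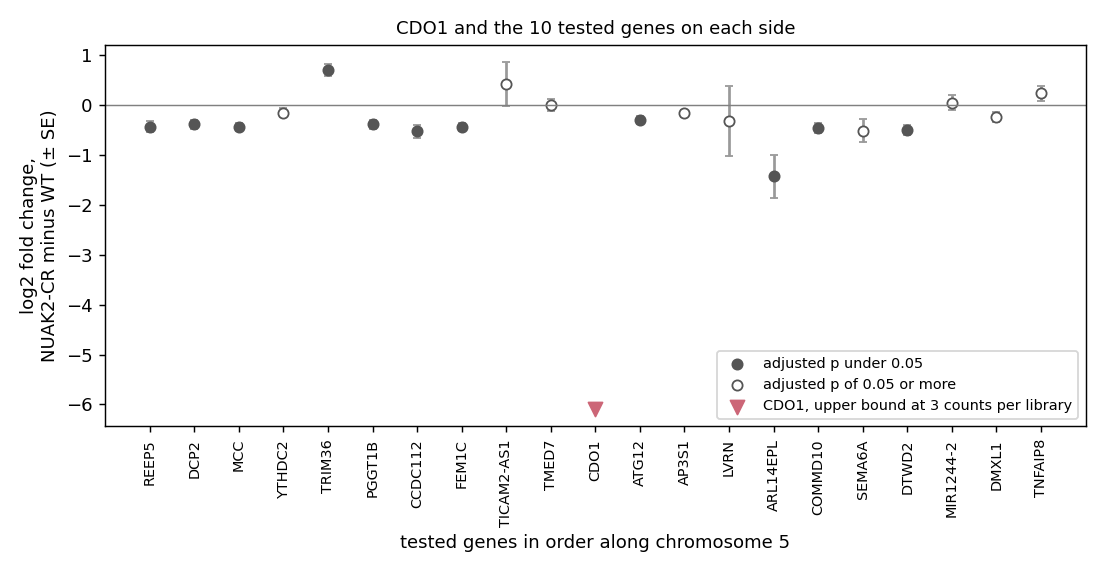
Log2 fold change of NUAK2-CR minus WT (vertical axis, ± SE) for CDO1 and the 10 tested genes on each side, in their order along chromosome 5. Filled points have an adjusted p-value under 0.05; the triangle marks the bound of CDO1 at -6.09 for 3 counts per library (-5.09 for 6 counts), and the other genes lie between -1.42 and 0.71.

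The genes whose pattern over the 6 libraries was nearest to that of CDO1, by the root mean square difference of log2(CPM + 1), CPM being counts scaled by the effective (TMM-scaled) library size,, were PASD1, PLD5, MFAP5, LINC00052 and STXBP6. The difference was 0.16 for PASD1 and 0.30 for STXBP6. PASD1 had 221, 203 and 250.5 normalized counts in WT and none in NUAK2-CR. STXBP6 had 184, 168 and 186 in WT, none in NUAK2-CR replicate 1, and 4.82 and 4.39 in the other NUAK2-CR libraries.

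The other members of the taurine branch, CSAD and ADO, were higher in NUAK2-CR. CSAD (gene 51380, chromosome 12, 53157663 to 53181351), the decarboxylase that follows CDO1, had 361, 305 and 271 normalized counts in WT, against 585, 467 and 472 in NUAK2-CR. The means were 312 ± 45.7 and 508 ± 67.0 (SD, n = 3), a log2 fold change of 0.70 (SE 0.14). Every NUAK2-CR library was above every WT library. CSAD overlaps ZNF740, which was also higher with a log2 fold change of 0.42 (SE 0.07). By default featureCounts does not use strand, so reads where they overlap cannot be assigned to either, and part of the CSAD count is uncertain. ADO (gene 84890, chromosome 10, 62804720 to 62808479), which oxidizes cysteamine and N-terminal cysteines of proteins, had 1906, 1630.3 and 1756 normalized counts in WT, against 2270.4, 2335 and 2392 in NUAK2-CR. The log2 fold change was 0.40 (SE 0.08), or 1.32-fold, again without overlap between the groups. The 5 tested genes on each side had a median log2 fold change of 0.47 for ADO and 0.40 for CSAD. Past the threshold were 6 genes beside ADO and 5 beside CSAD, all higher. With 10 genes on each side, the medians were 0.07 and 0.20, so they depended on the width of the window. The threshold was then passed by 7 higher and 5 lower genes for ADO, and by 8 and 2 for CSAD. Whether the ADO and CSAD values moved with those of their neighbours was not tested.

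The transsulfuration enzymes went in opposite directions. CTH (gene 1491, chromosome 1, 70411268 to 70439851), which releases cysteine from cystathionine, had 205, 179 and 209 normalized counts in WT, against 82.5, 92.9 and 91.1 in NUAK2-CR. The mean was 45.0% of WT, with a log2 fold change of -1.15 (SE 0.18) and no overlap. The 10 tested genes on each side of CTH had a median log2 fold change of -0.53, with 12 of the 20 lower and 1 higher at an adjusted p-value under 0.05. The part of this regional shift in the CTH value was not tested.

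CBS (gene 875, chromosome 21, 43053191 to 43076873), which makes cystathionine, had few reads. Its normalized counts were 18.6, 16.4 and 22.6 in WT and 50.8, 26.5 and 92.2 in NUAK2-CR. The log2 fold change was 1.57 (SE 0.44), and 1.01 without NUAK2-CR replicate 3, where it no longer passed the threshold. The 10 tested genes on each side of CBS had a median log2 fold change of 0.24, with 8 higher and 2 lower past the threshold. The genome build holds a second copy of CBS (chromosome 21, 6444869 to 6468621), which the GENCODE annotation marks as an artifact of the assembly. RefSeq lists this copy with CBSL as a synonym, the name used here. Of the 100-base windows of CBS exons, 91.7% occur letter for letter in this copy, and reads that align to several places are left out by the default of featureCounts. How much of its transcript the CBS count represents is therefore uncertain.

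Most of the reads that were counted had gone to the second copy. CBSL had 74.4, 56.0 and 118 normalized counts in WT, against 334, 534 and 246 in NUAK2-CR (log2 fold change 2.17, SE 0.30). With both copies added, the values were 93.0, 72.4 and 141 in WT and 385, 561 and 338 in NUAK2-CR, with means of 102 ± 35.1 and 428 ± 117 (SD, n = 3). The sum was 4.19-fold higher in NUAK2-CR, with a log2 fold change of 2.08 in the fit, and the groups did not overlap. The share of the sum that was counted on CBS was 4.73% in NUAK2-CR replicate 2 (exact 95% binomial interval 2.99 to 7.08) and 27.3% in replicate 3 (22.4 to 32.6). These intervals cover counting error only and do not overlap, so the division between the copies differed between libraries of 1 group.

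The glutathione synthesis enzymes differed least. GCLC (gene 2729, chromosome 6, 53497341 to 53545101) had 1245, 1197 and 1211 normalized counts in WT. The NUAK2-CR libraries had 1206, 1158 and 1107 and overlapped with them, at a log2 fold change of -0.07 (SE 0.08). GSS (gene 2937, chromosome 20, 34928432 to 34956027), which overlaps the scarcely counted MYH7B, stood at 3929, 3117 and 3301 in WT and at 3418, 3392 and 3364 in NUAK2-CR. The log2 fold change of GSS was -0.03 (SE 0.08), and without WT replicate 1, the highest library, it was 0.09. Neither passed the threshold, which does not show that their levels were equal. The 10 tested genes on each side had a median log2 fold change of 0.29 for GSS and 0.15 for GCLC. The threshold was passed by 11 higher and 1 lower genes for GSS, and by 6 and 1 for GCLC.

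GCLM (gene 2730, chromosome 1, 93885199 to 93909430) had 7486, 7914 and 8079 normalized counts in WT, against 6684, 6745 and 7189 in NUAK2-CR. The mean was 87.8% of WT, with a log2 fold change of -0.19 (SE 0.07) and no overlap. This call was lost without WT replicate 2 or 3 and without NUAK2-CR replicate 1 or 2. The 20 tested genes beside GCLM had a median log2 fold change of -0.41, and the nearest 10 a median of -0.16, so this median depended on the width of the window. Per kilobase of exon, the ratio of GCLM to GCLC counts was 9.55, 10.5 and 10.6 in WT and 8.80, 9.25 and 10.3 in NUAK2-CR, so the groups overlapped in this ratio. With the length of the longest transcript it was 4.66, 5.12 and 5.17 in WT and 4.30, 4.52 and 5.04 in NUAK2-CR. The groups overlapped again, but the size of the ratio depended on the length used.

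Levels of the members were compared with each other as CPM per kilobase of annotated exon. In WT the order was GCLM at 38.5 (36.8 to 39.7 over libraries), GSS at 14.9 ± 1.84, ADO at 12.5 ± 0.98, GCLC at 3.77 ± 0.08, CDO1 at 3.43 ± 0.31, CTH at 2.18 ± 0.17, CSAD at 1.89 ± 0.28 and CBS at 0.08 ± 0.01 (SD, n = 3). The WT libraries of GSS and ADO overlapped, as did those of GCLC and CDO1 and those of CTH and CSAD. The other neighbours in the order did not overlap. The CBS level leaves out the reads counted on CBSL, so its place in the order is uncertain. In NUAK2-CR the level of ADO was 16.5 ± 0.43, that of GSS 14.7 ± 0.12, that of CSAD 3.07 ± 0.41 and that of CTH 0.98 ± 0.06. Thus ADO stood above GSS and CSAD above CTH in every NUAK2-CR library. With the length of the longest transcript in place of all exons, the WT mean of GSS was 30.5 and that of ADO 12.5, and ADO stayed below GSS in NUAK2-CR as well. On that scale CSAD was above CTH in WT too.

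**Figure D3:**
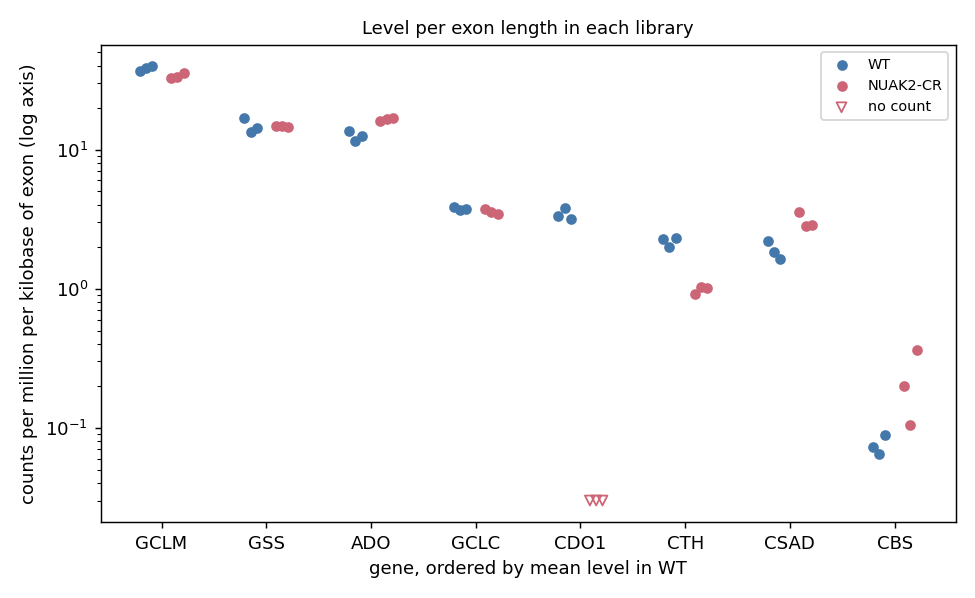
CPM per kilobase of annotated exon (vertical axis, logarithmic) of the 8 members in each library, ordered by the WT mean. Filled points are libraries; open triangles at the bottom stand for the NUAK2-CR libraries of CDO1, which had no count. GCLM is at the top in both groups at 38.5 in WT. CBS is the lowest member that was counted, but its level leaves out reads counted on a second copy, so this place is uncertain.

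The surrounding pathways were followed with 8 lists of 99 genes that are not members. Of the 98 genes found in the table, 79 passed the filter on low counts, and 53 of these reached an adjusted p below 0.05, 20 higher and 33 lower in NUAK2-CR. All genes tested, of which 54.5% passed (26.3% higher and 28.2% lower), are the background for this count and for those of each list. The median log2 fold change over these lists was -0.23, against -0.01 for all genes tested.

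Around taurine and cysteine breakdown, 9 of 12 genes were tested, of which 2 rose and 4 fell, with a median of -0.06. SLC6A6, the taurine transporter, rose from 3963 ± 449 to 7311 ± 197 normalized counts (log2 fold change 0.88, adjusted p = 2.16e-06). SQOR, the mitochondrial sulfide oxidase, fell to 46.1% of WT (log2 fold change -1.11, adjusted p = 1.79e-05). TSTD1, a small sulfurtransferase, had a log2 fold change of -0.70, and GOT2, a mitochondrial transaminase that also accepts cysteine sulfinate, -0.49. TST, SUOX and ETHE1 did not pass the threshold, with log2 fold changes from -0.06 to 0.05.

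Of the methionine cycle, which supplies homocysteine, 9 of 12 genes were tested, 2 higher and 3 lower, with a median of 0.03. MAT2A, which makes S-adenosylmethionine, had a log2 fold change of 0.34 (adjusted p = 0.0011), and its regulatory partner MAT2B -0.48 (adjusted p = 0.000117). AHCYL1, a relative of the homocysteine-forming enzyme AHCY, fell by 0.67 on the log2 scale, and MTRR, which reactivates methionine synthase, by 0.51. AHCY itself had a log2 fold change of 0.09 (adjusted p = 0.285).

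Among cystine and cysteine transporters, 4 of 7 tested genes rose and 1 fell, with a median of 0.24. SLC1A4 and SLC1A5, exchangers of small neutral amino acids, rose to 198% and 165% of WT (log2 fold changes 0.98 and 0.72, adjusted p = 1.84e-06 and 4.65e-06). SLC3A2, the heavy chain of the cystine antiporter, had a log2 fold change of 0.33 (adjusted p = 0.00273). The antiporter's transport subunit SLC7A11 had 5062, 6981 and 6374 normalized counts in WT, against 5663, 4255 and 5659 in NUAK2-CR, and did not pass the threshold (log2 fold change -0.24, adjusted p = 0.126). SLC1A1, a carrier of glutamate and cysteine, had a log2 fold change of -0.42 (adjusted p = 0.0215), which rose to an adjusted p of 0.0792 without WT replicate 2 and also missed the threshold without WT replicate 3 or NUAK2-CR replicate 3.

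The largest log2 fold changes within the 8 lists were in glutathione breakdown, where 5 of 10 tested genes rose and 4 fell, with a median of 0.27. GGT5, a cell-surface transpeptidase that removes the glutamyl group of glutathione, had 18.6, 20.3 and 24.7 normalized counts in WT, against 584, 567 and 530.3 in NUAK2-CR. It was 26.4-fold higher (log2 fold change 4.74, SE 0.17, adjusted p = 6.66e-10). ANPEP, an aminopeptidase that can split cysteinylglycine, had 114, 81.0 and 105 in WT and 5.08, 7.24 and 4.39 in NUAK2-CR (log2 fold change -4.15, SE 0.36, adjusted p = 9.73e-07). It passed the filter on low counts through its WT libraries alone, with raw counts of 4, 6 and 4 in NUAK2-CR. CHAC1, which degrades glutathione inside the cell, rose 3.64-fold (log2 fold change 1.87, adjusted p = 1.04e-07), and OPLAH, which returns oxoproline to glutamate, 1.95-fold. GGT1, which has close copies in the genome, did not pass the threshold (log2 fold change 0.35, adjusted p = 0.198).

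Of 9 tested glutathione peroxidases and glutaredoxins, 2 rose and 5 fell, with a median of -0.24; 4 passed without NUAK2-CR replicate 3. GPX4, which reduces lipid peroxides in membranes, rose from 6198 ± 474 to 10711 ± 237 normalized counts (log2 fold change 0.79, adjusted p = 1.65e-06). GPX3, the secreted peroxidase, fell to 24.2% of WT (log2 fold change -2.04, adjusted p = 2.08e-06). GLRX3 and GLRX2 had log2 fold changes of -0.90 and -0.49. Of 14 tested glutathione transferases 6 passed, each of them lower, with a median of -0.32, and 4 to 8 passed when a library was left out. GSTM3 fell from 905 ± 46.1 to 138 ± 24.1 normalized counts (log2 fold change -2.71, adjusted p = 7.23e-09). GSTM4, GSTA4 and GSTM1 had log2 fold changes of -0.75, -0.67 and -0.67. Genes of the GSTM family resemble each other, so their reads may be split, and GSTM1 missed the threshold without WT replicate 3 (adjusted p = 0.0569) or NUAK2-CR replicate 2 (adjusted p = 0.0538). GSTP1, the transferase with the highest mean normalized count in both groups, had a log2 fold change of 0.04 (adjusted p = 0.652).

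**Figure D4:**
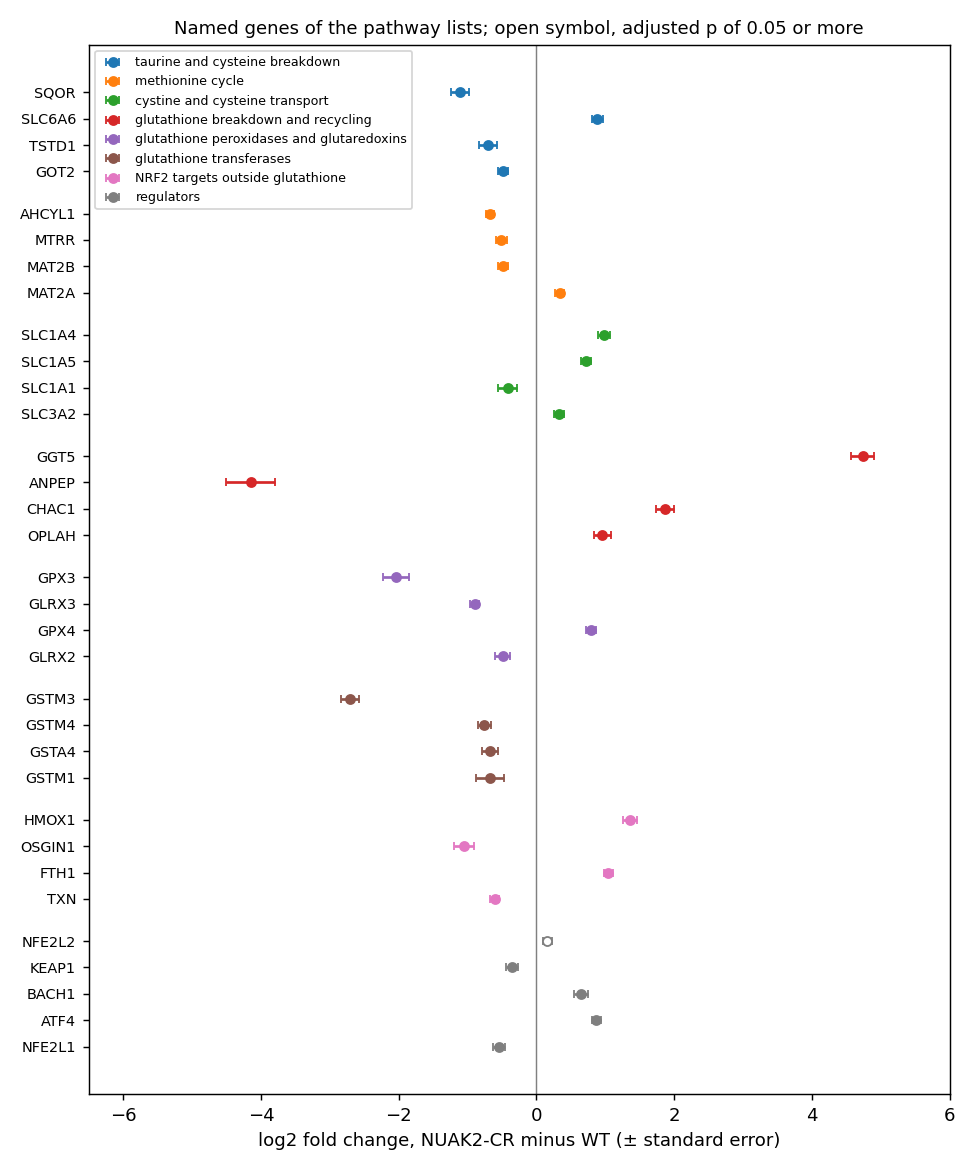
Log2 fold change of NUAK2-CR minus WT (horizontal axis, ± SE) of the named genes of the 8 pathway lists, colored by list. Filled points passed an adjusted p-value of 0.05, and NFE2L2, drawn open, did not; GGT5 at 4.74 and ANPEP at -4.15 stand at the ends.

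NFE2L2 encodes NRF2, the factor known to drive GCLC, GCLM and many antioxidant genes, and ATF4 encodes a factor known to drive CTH, CHAC1 and amino acid transporters. NFE2L2 had 3806, 3765 and 3816 normalized counts in WT, against 4280.5, 4009.9 and 4429 in NUAK2-CR (log2 fold change 0.16, adjusted p = 0.0564); over the alternatives its adjusted p ranged from 0.0284 to 0.217. KEAP1, which targets NRF2 for degradation, had a log2 fold change of -0.35 (adjusted p = 0.00583), BACH1, a repressor at the same elements, 0.65 (adjusted p = 0.000212) and NFE2L1, a relative of NRF2, -0.54 (adjusted p = 0.000261). ATF4 rose from 8146 ± 287 to 14903 ± 764 (log2 fold change 0.87, adjusted p = 4.32e-07). Of 16 tested NRF2 targets outside glutathione synthesis, 3 rose and 8 fell, with a median of -0.28. HMOX1, heme oxygenase, rose 2.56-fold and FTH1, the ferritin heavy chain, 2.06-fold. TXN, thioredoxin, and OSGIN1 fell to 65.6% and 48.4% of WT. NQO1, a much used readout of NRF2, was at 98.5% of WT (log2 fold change -0.02, adjusted p = 0.816).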

How the data were processed

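RNA-sequencing of U251 cells covered 3 WT and 3 NUAK2-CR libraries from a stranded mRNA kit, read in pairs. Raw counts per gene were deposited by the authors, who used Trimmomatic, HISAT2 (hg38) and featureCounts at default settings. By default featureCounts ignores strand and leaves out reads that align to several places. Versions and annotation are not given in the sources used here. In each library genes with 2 counts (936 to 1021) outnumbered genes with 1 count (364 to 438), so both mates of a pair appear to be counted. Counts were tested in R 4.3.3 with edgeR 4.0.16 (filterByExpr, TMM, quasi-likelihood F test, prior count of 0.125) and Benjamini-Hochberg adjustment over 14873 genes; the steps were tested on simulated data. Alternatives were DESeq2 1.42.0, other filters and scalings, each library left out, a replicate block, a prior count of 2 and thinning to the smallest total.

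Symbols from RefSeq (GRCh38.p14) matched 27745 of 28395 gene identifiers. Exon lengths came from GENCODE, and GSTT1 was not analysed here. Promoters were matched for 7 of the 8 members (not GSS). No libraries were duplicates. Members and lists were chosen with earlier results of these data known. Named genes are the members, CBSL, NUAK2, 5 regulators, the 5 patterns nearest to CDO1 and, per list, up to 4 genes with the largest absolute log2 fold change among those past an adjusted p of 0.05 and with 100 or more normalized counts in either group; others were named after their values were seen.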

Additional observations from a re-analysis of the deposited data

How the results depend on the processing

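Between 5 and 6 members passed the threshold under every alternative; a minimum of 10 counts in every library gave 5, because it removes CDO1. The log2 fold change of GSS was the only value to change sign, to 0.087 without WT replicate 1; with each library left out in turn it ran from -0.10 to 0.09. CBS ranged from 1.01 to 1.90 and GCLM from -0.22 to -0.15 in the same way, and both lost their call in part of these fits. Of peroxidases and glutaredoxins, 4 to 7 passed when a library was left out, and of glutathione transferases 4 to 8. Over all genes these fits, which have fewer samples, gave 7190 to 8481 against 8107. A floor of 6 counts per library, chosen after the data were seen because mates appear to be counted separately, gave CDO1 as at least 34.1-fold lower, and leaving out each WT library gave 64.7-fold to 70.6-fold. NFE2L2 passed with RLE factors (adjusted p = 0.0464) and without WT replicate 1 (adjusted p = 0.0284). Libraries with the same number showed correlations of their deviations from the group means of 0.04, -0.04 and 0.05 for numbers 1, 2 and 3, so the numbers did not pair the libraries; with a replicate block 8167 genes passed, against 8107, and 6 members did. CBS rested on 17 to 84 counts per library. The median log2 fold change of the genes beside GCLM was -0.41 over 10 genes on each side and -0.16 over 5. No scaling moved the median of all genes by over 0.1.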

Other observations

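Glutathione is kept reduced with NADPH, and 3 genes of the pentose phosphate pathway, a main source of NADPH, were each lower in NUAK2-CR. They belong to the list of NRF2 targets, and were named after their values were seen. PGD, an NADPH-forming dehydrogenase, fell from 13763 ± 309 to 9129 ± 166 normalized counts (SD, n = 3; log2 fold change -0.59, adjusted p = 5.83e-06 from edgeR). The carbon-shuffling enzymes TKT and TALDO1 fell to 69.7% and 68.3% of WT (log2 fold changes -0.52 and -0.55, adjusted p = 2.44e-05 and 4.95e-05). GSR, which uses NADPH to reduce oxidized glutathione, fell to 79.3% (log2 fold change -0.33, adjusted p = 0.00446).

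GADL1, another decarboxylase able to act on cysteine sulfinate, had 12 counts in each WT library and 0, 0 and 2 in NUAK2-CR, too few to pass the filter, so it was not tested.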
